A study of Mus musculus with 12 samples.

Results

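The cells described here are macrophages of a mouse tracheal allograft that carried transcripts of Arg1, Nos2 or both. They were picked from the allograft library by a fixed rule on raw counts of unique molecular identifiers (UMIs, each one captured transcript). A cell needed 500 or more detected genes, 20% or less mitochondrial UMIs, 3 or more UMIs summed over the complement genes C1qa, C1qb and C1qc, and 1 or more UMIs of Arg1 plus Nos2. It also had to have fewer than 3 UMIs summed over Lyve1, Folr2, Cd163, Cd209f, Cd209g and Fcna, genes of resident tissue macrophages. The rule kept 220 of the 3895 allograft cells that passed the filter, out of 12630 such cells in the series. Of the 220 cells, 101 had Arg1 UMIs and no Nos2 UMI (Arg1-only cells), 75 had Nos2 and no Arg1 (Nos2-only cells) and 44 had both (double cells). They were set against the 1651 C1q cells that met the other criteria and had neither transcript.

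The series compares single cells of a tracheal allograft, of native trachea and of spleen, with 4 samples per source, in a study of mononuclear phagocytes in airway fibrosis after transplantation. Mesenchymal progenitor is the cell type that the labels assign to trachea and graft, and splenocyte the one for spleen. No label names a strain, donor and recipient pairing, sex, age, treatment or time after grafting. Each source was deposited as 1 matrix that pools its 4 samples, with no map from cells to samples, so there are no replicates, no test and no p-value here, and intervals cover counting error only.

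Arginase 1 and the inducible nitric oxide synthase use the same substrate, L-arginine. Arginase 1, encoded by Arg1, splits it into urea and ornithine, the precursor of polyamines and proline, and is known from macrophages exposed to interleukins 4 and 13 and from hypoxic or tumour macrophages. The synthase encoded by Nos2 makes nitric oxide and citrulline and is known from macrophages exposed to interferon gamma and microbial products. Both genes are often used as opposite marks of alternatively and classically activated mouse macrophages.

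The libraries of allograft, native trachea and spleen held 4611, 4626 and 4856 barcodes, with medians of 4994, 6557 and 4433 UMIs per filtered cell. They shared 3 to 5 cell barcodes per pair. The macrophage markers fixed for the label check were all present in each class, with summed levels of 46955, 38838 and 38536 UMIs scaled to 1000000 per class (CPM) in Arg1-only, Nos2-only and double cells. C1qa, C1qb and C1qc, which chose the members, are among these markers. The summed level was 42697 CPM in cells with neither. It was 818 CPM in 500 allograft cells with 5 or more lymphocyte-marker UMIs and no UMI of Csf1r, Adgre1 and Fcgr1. Csf1r, the receptor of the macrophage growth factor and not in the membership rule, stood at 463, 453 and 572 CPM in the 3 classes. Its 0 in the lymphocyte-marker cells was set by their choice. The macrophage name thus held for the members, summed by class, by markers outside the rule too. The label of mesenchymal progenitors did not match their transcripts.

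Cells of this kind were nearly all in the allograft. The same rule found 1 cell among 620 C1q cells of the native trachea (0.161%, exact Clopper-Pearson interval 0.00408 to 0.895) and 1 among 137 of the spleen (0.730%, 0.0185 to 4.00). In the allograft it found 220 of 1871 (11.8%, 10.3 to 13.3). These bases hold only C1q cells under the resident-gene limit. That limit left out 1188 of 1808 C1q cells of the native trachea and 213 of 2084 of the allograft. Among C1q cells with Arg1 or Nos2 it left out 6 of 7 in the native trachea and 20 of 240 in the allograft. Arg1 (ENSMUSG00000019987, minus strand, chr10:24915221-24927484) had 1763 UMIs in the filtered allograft cells, 29 in those of the native trachea and 8 in those of the spleen. Nos2 (ENSMUSG00000020826, plus strand, chr11:78920787-78960254) had 1174, 2 and 0 UMIs. The members held 80.0% of the allograft's Arg1 UMIs and 82.5% of its Nos2 UMIs, the values that chose them.

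The members differed widely in how much of either transcript they held. Arg1-only cells had a median of 2 Arg1 UMIs and a maximum of 82, and double cells a median of 9.5 and a maximum of 103. Nos2-only cells had a median of 3 Nos2 UMIs and a maximum of 92, and double cells a median of 6 and a maximum of 37. Summed per class, Arg1 stood at 667 CPM in Arg1-only cells and at 1947 CPM in double cells, and Nos2 at 541 CPM in Nos2-only cells and at 919.6 CPM in double cells. The 10 cells with the most Arg1 held 46.0% of the Arg1 UMIs of the Arg1-only class and 67.9% of those of the double class. The corresponding shares of Nos2 were 57.5% in Nos2-only and 57.0% in double cells.

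**Figure D1:**
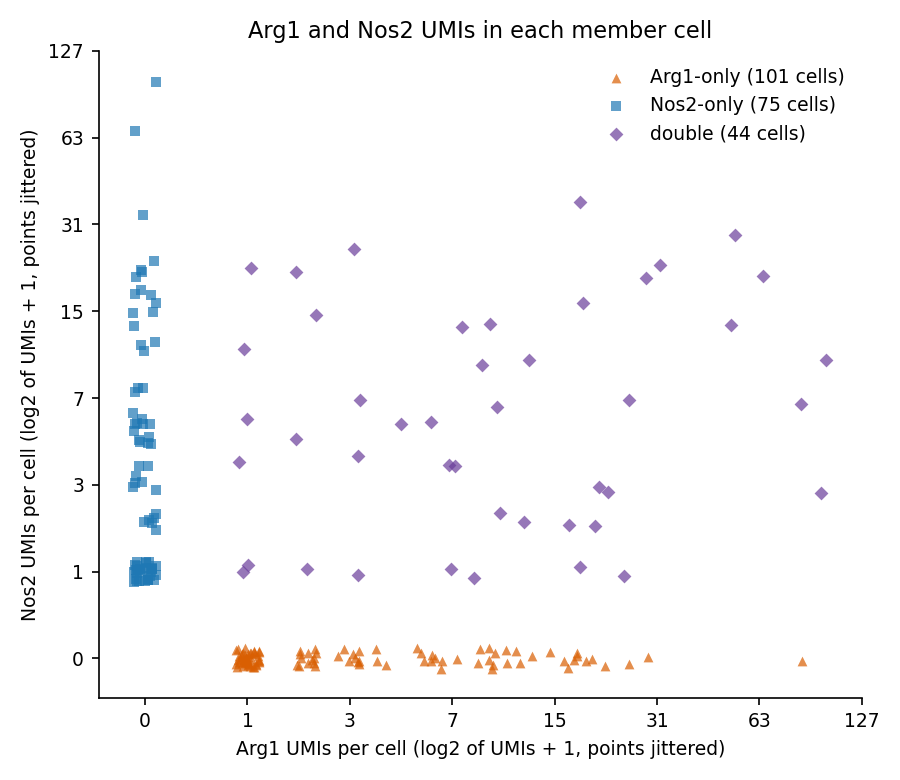
Each point is 1 of the 220 member cells, placed by its Arg1 UMIs (x axis) and Nos2 UMIs (y axis), both on a scale of log2 of UMIs plus 1 with a small random shift so that cells with equal counts can be seen. The 44 double cells spread over the whole plane, from 1 UMI of either transcript to 103 of Arg1 and 37 of Nos2, while many single-transcript cells sit at 1 UMI.

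A single UMI put 73 of the 220 cells in the set, 42 had 2 to 4 UMIs of the pair and 105 had 5 or more. Free RNA in droplets gives stray UMIs, so the same genes were read in the 500 lymphocyte-marker cells, whose median depth was 3982.5 UMIs. Of these, 6 had an Arg1 UMI (1.2%, 0.442 to 2.59) and 4 a Nos2 UMI (0.8%, 0.218 to 2.04), none more than 1. Because these cells were also chosen for no UMI of Csf1r, Adgre1 and Fcgr1, the shares may understate the background. Among members, 43 Arg1-only and 30 Nos2-only cells had exactly 1 UMI and cannot be told from such background cell by cell. Just outside the rule, 34 cells with 1 or 2 C1q UMIs were otherwise members, with 187 Arg1 and 134 Nos2 UMIs, and 20 were left out for 3 or more resident-gene UMIs, with 114 and 30. Just inside, 15 members had 3 to 5 C1q UMIs and 42 had 1 or 2 resident-gene UMIs. Of the 500 lymphocyte-marker cells 17 (3.4%) also reached the minimum of 3 C1q UMIs, so members near that minimum may include other cells.

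Depth differed between the classes. The median cell had 7682 UMIs in the Arg1-only class, 13115 in the Nos2-only class, 9654 in the double class and 6793 among cells with neither. The median mitochondrial share was 3.94%, 4.25%, 2.51% and 5.21% in that order. A doublet caller marked 1 Arg1-only, 1 Nos2-only and 0 double cells. It marked 0.950% of the filtered library where 3.69% was expected from loading, so most doublets were not found.

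Nos2 was found more often in cells with Arg1 than in cells without it. Of 145 C1q cells with Arg1, 44 also had Nos2 (30.3%, 23.0 to 38.5), against 75 of 1726 cells without Arg1 (4.35%, 3.43 to 5.42). The same order held at equal depth. With every cell thinned to 1500 UMIs, which left out 1 Arg1-only cell and 80 cells with neither for depth, and with the rule applied again to the thinned counts, 18 of 83 Arg1 cells had Nos2 (21.7%, 13.4 to 32.1) against 29 of 1627 without Arg1 (1.78%, 1.2 to 2.55). Among the shallowest of 3 equal groups by depth the shares were 17.1% and 1.53%, in the middle group 29.2% and 1.57%, and in the deepest 38.7% and 10.1%.

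Among genes that handle arginine, the transporter Slc7a2 was higher in all 3 classes and Ass1 in those with Nos2. Slc7a2, the cationic amino acid transporter that brings arginine into activated macrophages, stood at 101 CPM in Arg1-only, 212 in Nos2-only and 303 in double cells, against 22.1 CPM with neither. It was 4.58-fold (3.55 to 5.82), 9.60-fold (8.02 to 11.5) and 13.8-fold (11.1 to 17) higher than with neither. Ass1, which returns citrulline to arginine, stood at 272 CPM in Nos2-only and 226 in double cells and was 2.89-fold (2.53 to 3.29) and 2.41-fold (1.93 to 2.96) higher than with neither. In Arg1-only cells Ass1 stood at 87.1 CPM, beside 94.1 CPM with neither. Gch1, the first enzyme in making the cofactor of nitric oxide synthase, was at 56.1, 107 and 118 CPM in the 3 classes and at 71.9 CPM with neither.

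Odc1, which makes the polyamine putrescine from the ornithine that arginase yields, was not higher with Arg1. It stood at 259 CPM in Arg1-only, 213 in Nos2-only and 216 in double cells, and at 275 CPM with neither. Arg2, the mitochondrial arginase, stood at 40.1, 39.4, 56.4 and 24.6 CPM. Over the arginine and polyamine list as a whole the median log2 ratio against neither was -0.06 in Arg1-only, -0.17 in Nos2-only and -0.03 in double cells, near the medians over all genes of -0.003, -0.01 and -0.04. Under the alternatives these medians ran from -0.30 to 0.08, -0.29 to 0.15 and -0.24 to 0.36, so they have no fixed direction.

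The double cells had the most genes past 1.5-fold against the C1q cells with neither transcript. They were also the smallest class, with 425189 UMIs against 872882 in Arg1-only and 1066925 in Nos2-only cells. Smaller sums carry more counting error. Genes were compared when their higher class held at least 50 CPM and at least 30 UMIs. Of 2780 such genes 327 were 1.5-fold or more higher in double cells (11.8%) and 470 lower (16.9%). Lists of inflammation, of hypoxia and glycolysis and of the interferon-gamma response had the highest medians in these cells. That of alternative activation had the lowest, though some of its members were higher and its median changed sign when cells were thinned.

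Hypoxia-inducible genes were higher in double cells as a group. Of the 32 list members 27 reached the minimum level, and 24 were 1.5-fold or more higher and 0 lower, beside 11.8% and 16.9% of all genes. The median log2 ratio over the 32 measured members was 1.54, beside -0.04 over all measured genes. Egln3, a prolyl hydroxylase that marks the hypoxia-inducible factor for decay and is itself induced by it, stood at 77.6 CPM against 4.42 (17.7-fold, 11.1 to 27.4). Bnip3, which directs the removal of mitochondria, stood at 162 against 18.2 CPM (8.96-fold, 6.71 to 11.7), with UMIs in 72.7% of double cells and 11.8% of cells with neither. Ero1l, an oxidase of protein folding, was 5.63-fold (4.28 to 7.23) higher.

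The single-transcript classes shared much of this set. Of the 32 list members, 27 reached the minimum in Arg1-only cells and 20 were higher than with neither (0 lower), beside 5.34% of all genes higher and 3.5% lower in that comparison. In Nos2-only cells 16 of 26 were higher and 0 lower, beside 7.43% and 7.52% of all genes. The medians were 0.88 and 0.66. Vegfa, the growth factor of vessels, stood at 420.4, 245 and 731 CPM in Arg1-only, Nos2-only and double cells and at 166 CPM with neither. The lactate exporter Slc16a3 stood at 182, 184, 303 and 79.4 CPM in the same order. Vegfa, Slc16a3, Tnf and Il1b were chosen after their values were seen.

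Promoter windows were searched because the hypoxia list was higher as a group. The motif ACGTG, the core of the hypoxia response element, was searched on both strands of the 250 bases before each RefSeq gene start (GRCm38.p6). It was found for 17 of the 28 list genes with an entry, and for 18.5% of all 27025 genes. Egln3 and Bnip3 are shown because they had the highest ratios in double cells against neither among called list genes with the motif. The presence of the motif in their windows was thus set by the choice. No binding was measured. Each window is written 5′ to 3′ on its gene's strand, and capitals mark the motif. Egln3 lies on the minus strand (chr12:54203875-54204124), as does Bnip3 (chr7:138909507-138909756), whose CACGTG matches on both strands.
Egln3: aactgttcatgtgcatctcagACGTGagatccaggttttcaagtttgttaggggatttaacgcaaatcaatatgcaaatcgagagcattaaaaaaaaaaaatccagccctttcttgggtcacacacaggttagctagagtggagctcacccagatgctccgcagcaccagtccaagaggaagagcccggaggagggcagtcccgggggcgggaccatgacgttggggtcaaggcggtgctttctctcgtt
Bnip3: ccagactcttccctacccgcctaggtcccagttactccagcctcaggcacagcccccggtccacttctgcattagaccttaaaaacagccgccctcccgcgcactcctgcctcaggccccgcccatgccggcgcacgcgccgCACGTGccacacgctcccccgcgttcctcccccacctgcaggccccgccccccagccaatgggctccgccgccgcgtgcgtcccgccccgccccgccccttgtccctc

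**Figure D2:**
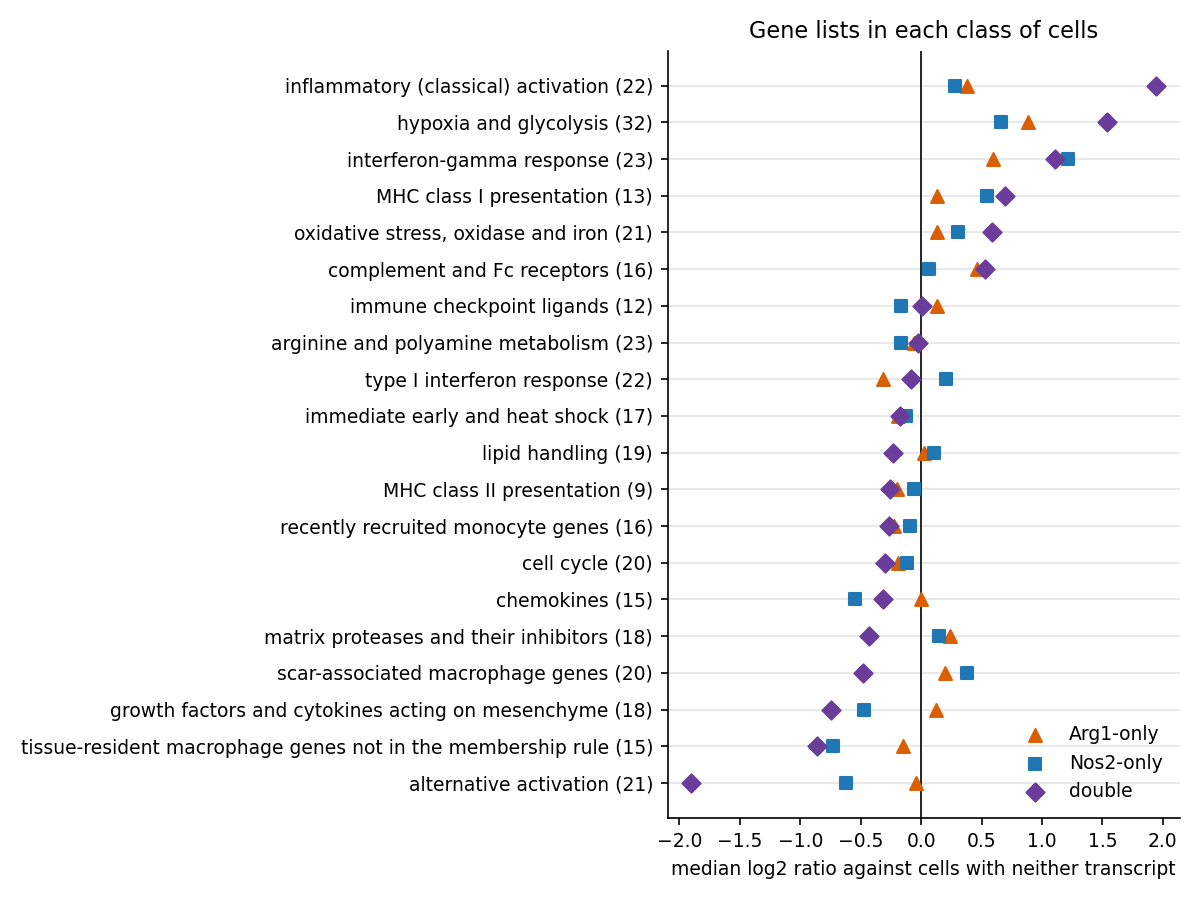
Each row is a gene list with the number of its members measured in double cells in brackets, and each point is the median log2 ratio of 1 class of cells against the 1651 C1q cells with neither transcript. The double cells stand farthest from 0 at both ends, at 1.95 for inflammatory activation and -1.90 for alternative activation, and Nos2-only cells stand highest, at 1.21, for the interferon-gamma response. The alternative activation median of double cells was 0.55 with cells thinned to 1500 UMIs.

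Inflammatory genes were the most raised list in double cells. Of the 22 measured members 17 reached the minimum, and 13 were 1.5-fold or more higher and 0 lower, beside 11.8% and 16.9% of all genes. The median log2 ratio was 1.95. Ptgs2, the inducible cyclooxygenase, stood at 1350.0 CPM against 97.8 (13.8-fold, 12.5 to 15.2). Ptges, the enzyme that follows it in making prostaglandin E2, stood at 129 CPM against 2.56, or 50.3-fold (32.3 to 80.4), with 29.1% of its UMIs from 1 cell. Il1a, an alarm cytokine, was 9.20-fold (7.16 to 11.6) higher at 212 CPM. Il1b stood at 2792 CPM in double cells, 916 in Nos2-only, 684 in Arg1-only and 366 with neither, and Tnf at 355, 109.7, 207 and 93.4 CPM.

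Ccl5, a chemokine for T cells and monocytes, stood at 7378 CPM in double cells, 1501 in Arg1-only, 1642 in Nos2-only and 350.1 with neither. Lymphocytes also make Ccl5, and the lymphocyte-marker cells held it at 4231 CPM. T cell markers summed to 7.06 CPM in double cells and 4339 CPM in the lymphocyte-marker cells, which several of these markers chose. In double cells 3 of 9 T cell markers and 3 of 7 NK cell markers had UMIs. Cd3d, Cd3e and the NK cell gene Ncr1 were among those at 0. The part of lymphocyte transcripts in the Ccl5 level was not tested. Tnfrsf9, the receptor 4-1BB, stood at 268 CPM against 12.2 with neither (21.9-fold, 17.1 to 28.0) and at 373 CPM in lymphocyte-marker cells. Upp1, which breaks down uridine, stood at 186 CPM in double, 47.0 in Arg1-only and 64.7 in Nos2-only cells and was 16.8-fold (12.6 to 22.2) higher in double cells than with neither. Smpdl3b, a lipid-modifying enzyme, stood at 216, 32.1 and 92.8 CPM in the same order and was 11.2-fold (8.67 to 14.2) higher.

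Inhba, the activin A subunit, was 9.93-fold (7.65 to 12.7) higher in double cells than with neither and 6.45-fold (5.21 to 7.95) higher in Nos2-only cells. A few cells carried some of the other leaders. For Saa3, an acute-phase protein gene 28.2-fold (24.6 to 32.4) higher in double cells, 1 cell held 63.7% of the UMIs of its class. For Slpi, a protease inhibitor 25.3-fold (22.1 to 29.0) higher, 1 cell held 39.1%. The spread among cells is thus wide for Saa3, Slpi and Ptges, and narrower for Ccl5 (11.6% in 1 cell) and Ptgs2 (12.4%).

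**Figure D3:**
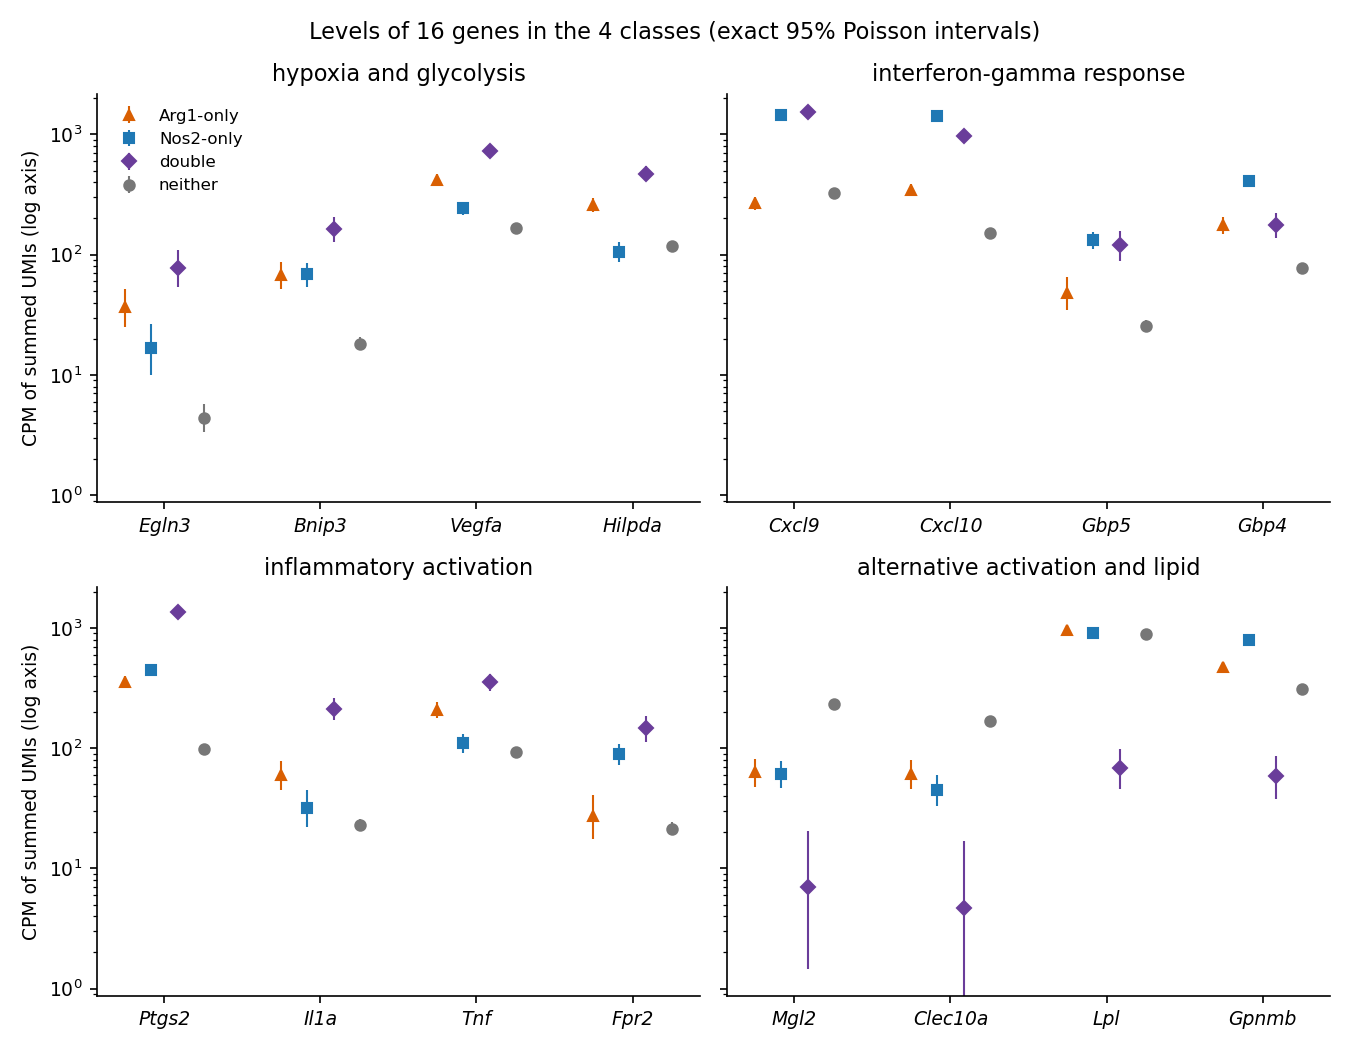
Points give the CPM of the summed UMIs (log axis) of 16 genes in Arg1-only, Nos2-only and double cells and in C1q cells with neither, with exact 95% Poisson intervals for counting error. Egln3, Bnip3, Ptgs2 and Il1a are highest in double cells, Gbp4 is highest in Nos2-only cells at 409.6 CPM, and Lpl and Gpnmb are low in double cells alone, at 68.2 and 58.8 CPM.

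The list of alternative activation had its lowest median in the same cells, with members on both sides. Of 21 measured members of that list 12 reached the minimum. Of these, 5 were lower and 4 higher, beside 16.9% of all genes lower and 11.8% higher. The median log2 ratio was -1.90, or -1.54 with the 3 members at 0 in 1 class set to 3 UMIs. The genes named next were all lower. Retnla, a secreted product of interleukin 4 exposed macrophages, stood at 14.1 CPM against 1504 with neither (98.4-fold lower, 48.9 to 290.4). The lectin genes Mgl2 and Clec10a, close relatives whose reads may be split, stood at 7.06 against 232 CPM and at 4.70 against 169 CPM. Ccl24, the eosinophil chemokine eotaxin 2, had 0 UMIs in double cells against 115 CPM with neither, at least 16.2-fold lower counting 3 UMIs for the class. With cells thinned to 1500 UMIs and reclassified, the list's median changed sign to 0.55. Thinning left 18 double cells, and the 0.5 UMI added to each sum weighs more in so small a class. The cause of the change was not tested. In the classes as first defined, read at 1500 UMIs per cell, Mgl2 was found in 2.27% of double cells, 5.0% of Arg1-only, 12.0% of Nos2-only and 20% of cells with neither.

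In Arg1-only cells 4 of 13 members of the list at the minimum were lower and 3 higher than with neither, beside 3.5% of all genes lower and 5.34% higher. Their median was -0.04 and ran from -0.66 to 0.21 under the alternatives, so it has no fixed direction. Mgl2 was 3.65-fold (2.82 to 4.90) and Clec10a 2.75-fold (2.11 to 3.72) lower there. Retnla was at 1462 CPM in Arg1-only cells, close to the 1504 CPM with neither, but came from 11.9% of the cells, and 1 cell held 38.7% of it. In Nos2-only cells 6 of 12 members were lower and 1 higher, beside 7.52% and 7.43% of all genes. The list median there was -0.62, and it was 0.66 when thinned.

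Several scar-associated macrophage genes stood lower in double cells than in both single classes. Lpl, lipoprotein lipase, stood at 970.3 CPM in Arg1-only and 899.8 in Nos2-only cells, near the 892 CPM with neither, and at 68.2 CPM in double cells. Gpnmb, a glycoprotein of lipid-laden macrophages, stood at 471, 798, 58.8 and 310.2 CPM in the order Arg1-only, Nos2-only, double and neither. Spp1, osteopontin, stood at 1178, 1183, 301 and 805 CPM, and Mmp12, the macrophage elastase, at 856, 867, 546 and 707 CPM. Igf1, insulin-like growth factor 1, stood at 171, 148, 18.8 and 197 CPM. Lpl, Gpnmb and Igf1 in double cells thus lay below both single classes and below the cells with neither.

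In counts, 11 of 18 scar-associated genes at the minimum were lower in double than in Arg1-only cells and 0 higher, beside 14% of all 2751 genes lower and 8.83% higher. Against Nos2-only cells 11 of 18 were lower and 1 higher, beside 13.4% and 9.6% of 2739 genes. The medians were -0.73 and -0.79. Both comparisons share the double cells, and 1 double cell held 56.0% of their Gpnmb and 54.7% of their Spp1 UMIs. Against neither, 8 of 19 were lower and 1 higher, beside 16.9% and 11.8% of all genes. The median was -0.48, and it was 0.0317 among cells of 3000 to 10000 UMIs, where Spp1 had a log2 ratio of 0.39.

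Other low genes of the double cells were Fcrls, an Fc receptor-like scavenger gene of resident phagocytes (16.3-fold, 7.69 to 55.4, lower than with neither), and the ion channel genes Tmem176a and Tmem176b (11.2-fold each, 7.27 to 19.4 and 7.53 to 18.2). Gas6, a ligand for the clearance of dying cells, was 9.92-fold (3.95 to 56.2) lower. Ccr2, the receptor of recruited monocytes, was 4.19-fold (2.58 to 7.96) lower at 32.9 CPM, and Ly6c2, another monocyte gene, 2.61-fold (1.95 to 3.39) higher at 136 CPM, with 44.8% of its UMIs in 1 cell and a log2 ratio of -0.93 when thinned. Of resident macrophage genes outside the membership rule, 5 of 9 were lower and 1 higher, beside 16.9% and 11.8% of all genes. The share higher is near that of all genes. The median of these resident genes was -0.86, or -0.03 with the 3 members at 0 set to 3 UMIs.

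Antigen presentation and effector genes of phagocytes were also examined in double cells, where 11.8% of all genes were higher and 16.9% lower than with neither. Of 11 MHC class I presentation genes at the minimum 7 were higher and 0 lower (median 0.70), with Psmb8, an immunoproteasome subunit, at 938 against 480.1 CPM. Of 7 MHC class II genes 0 were higher and 1 lower (median -0.26), and the share lower is near that of all genes. Among complement and Fc receptor genes 7 of 14 were higher and 0 lower (median 0.53), with Fcgr4, an activating receptor of immunoglobulin G, at 736 against 228 CPM (3.24-fold, 2.87 to 3.63). Genes of the oxidase, oxidative stress and iron were higher in 9 of 17 and lower in 0 (median 0.58).

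Nos2-only cells were marked by the interferon-gamma response. Of 3070 genes at the minimum 228 were higher (7.43%) and 231 lower (7.52%) than with neither, and of the interferon-gamma list 19 of 20 were higher and 0 lower, with a median of 1.21. Cxcl9 and Cxcl10, chemokines that draw T cells through CXCR3, stood at 1460.3 against 325 CPM (4.49-fold, 4.24 to 4.76) and at 1413 against 151 CPM (9.35-fold, 8.74 to 10.0). Gbp5 and Gbp4, GTPases that attack microbe-holding vacuoles and share sequence with their family, were 5.2-fold (4.23 to 6.33) and 5.25-fold (4.68 to 5.87) higher. Ubd, a ubiquitin-like gene of the same response, reached 60.9 CPM against 2.09 (28.8-fold, 18.3 to 47.5) with UMIs in 13.3% of the cells. Ly6i, a Ly6 family gene, was 6.60-fold (5.77 to 7.54) higher.

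The double cells carried the same list at a median of 1.10, with 14 of 18 genes higher and 1 lower than with neither. Of all genes 11.8% were higher and 16.9% lower in that comparison. Cxcl9 stood at 1536 CPM and Cxcl10 at 976 CPM in double cells. In Arg1-only cells 9 of 17 list genes were higher and 0 lower, beside 5.34% and 3.5% of all genes. The median was 0.59, but Cxcl9 stood at 267 CPM, below the 325 CPM with neither. The list's median was thus above 0 in all 3 classes, and Cxcl9 stood above its level with neither in the classes that hold Nos2.

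H2-M2, a nonclassical MHC class I gene, separated Nos2-only cells from both others. It stood at 732 CPM there, at 66.4 in Arg1-only, 87.0 in double and 182 CPM with neither, and was 10.9-fold (8.43 to 14.6) and 8.31-fold (6.05 to 12.0) higher than in Arg1-only and double cells. Gpnmb was 2.57-fold (2.39 to 2.77) higher in Nos2-only cells than with neither. Among the lowest genes were Ccl24 (27.2-fold lower, 11.9 to 112), the lectin Clec4b1 (5.51-fold, 3.57 to 9.59) and Fcrls (3.44-fold, 2.71 to 4.51). Chemokines had a median of -0.55, with 6 of 13 lower and 1 higher, beside 7.52% and 7.43% of all genes.

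Some leaders of the Nos2-only class came from very few cells or from transcripts of other cell types. For S100a8 and S100a9, the calgranulins of neutrophils, 1 cell held 93.9% and 98.6% of the UMIs of this class. Neutrophil markers summed to 1437 CPM in Nos2-only, 871 in Arg1-only and 158 in double cells and to 233 CPM with neither. Fibroblast markers summed to 1373 CPM in Nos2-only cells, against 192 in Arg1-only, 395 in double and 737 CPM with neither, and 14.7% of the cells had 3 or more such UMIs. Chondrocyte markers summed to 323, 29.8, 4.70 and 375.5 CPM in the same order. Col3a1, a collagen chain of fibroblasts, had 75.8% of its UMIs in 1 cell. Without the cells that carried 3 or more UMIs of lymphocyte, fibroblast or chondrocyte markers, Col3a1, Sparc and Sox9 no longer stood lower in Arg1-only cells, with log2 ratios of 0.37, 0.81 and 0.08.

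Arg1-only cells differed from the cells with neither at 270 of 3054 genes, with 163 higher (5.34%) and 107 lower (3.5%). The count was 531 with 2 UMIs required, 568 thinned, 406 with cells of 3000 to 10000 UMIs and 425 with the mean of each cell's CPM. The highest ratios besides Slc7a2 included Cxcl1, a neutrophil chemokine, at 689.7 against 162 CPM (4.26-fold, 3.88 to 4.66), and Ccl5 (4.29-fold, 4.03 to 4.56). Of the Ccl5 UMIs in Arg1-only cells 23.4% were in 1 cell. NK cell markers summed to 169.6 CPM in Arg1-only cells and 40.2 CPM with neither, with 1 Arg1-only cell at 3 or more such UMIs, and their part in the Ccl5 level was not tested. Trem1, an amplifier of inflammation on myeloid cells, was 4.11-fold (3.14 to 5.27) higher and Jag1, a Notch ligand, 3.76-fold (2.80 to 4.93). Bnip3 was 3.74-fold (2.74 to 4.96) and Ptgs2 3.63-fold (3.20 to 4.11) higher. Bst1, an ectoenzyme of NAD metabolism, stood at 162 CPM in Arg1-only, 166 in Nos2-only and 306 in double cells, and at 51.8 CPM with neither.

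The lowest genes of Arg1-only cells were led, beside Mgl2, by Vcam1, an adhesion molecule (35.5 against 187 CPM, 5.17-fold lower, 3.69 to 7.75), and Tmem176a (3.14-fold lower, 2.66 to 3.76). Among complement and Fc receptor genes 2 of 14 were higher and 0 lower, beside 5.34% and 3.5% of all genes, with a median of 0.47. Trem2, a lipid-sensing receptor of scar-associated macrophages, was 1.67-fold (1.54 to 1.81) higher. The scar-associated list as a whole had 3 of 19 members higher and 1 lower (median 0.20), beside 5.34% and 3.5% of all genes.

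Set directly against each other, Arg1-only and Nos2-only cells differed at 460 of 3107 genes (14.8%), 248 higher in Arg1-only (7.98%) and 212 in Nos2-only cells (6.82%). Of 20 interferon-gamma genes 13 were lower in Arg1-only cells and 0 higher, with a median of -0.74 beside 0.03 over all measured genes. Cxcl9 was 5.46-fold (4.76 to 6.31), Cxcl10 4.05-fold (3.59 to 4.61) and Gbp5 2.72-fold (1.93 to 3.97) lower. Ass1 was 3.11-fold (2.42 to 4.07) and Slc7a2 2.09-fold (1.64 to 2.72) lower in Arg1-only cells. C3, the central complement component, was 3.01-fold (2.64 to 3.46) lower.

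In the other direction, 9 of 14 chemokine genes were higher in Arg1-only cells and 0 lower (median 0.69), beside 7.98% and 6.82% of all genes. Cxcl1 was 3.69-fold (3.14 to 4.36) higher. Among cells of 3000 to 10000 UMIs, of which 54 were Arg1-only and 16 Nos2-only, the chemokine median was -0.25. F13a1, the coagulation factor XIII subunit of monocytes and macrophages, stood at 283 against 64.7 CPM (4.35-fold, 3.34 to 5.80). Ltb4r1, a receptor for leukotriene B4, was 3.40-fold (2.25 to 5.35) and Mmp13, a collagenase, 6.68-fold (4.16 to 11.8) higher. Il10 was 5.03-fold (2.79 to 10.3) higher, with UMIs in 10.9% of Arg1-only cells. Of 27 hypoxia genes 3 were higher and 0 lower in Arg1-only cells (median 0.19), and the share higher is near the 7.98% of all genes. Among the 3 was Hilpda, a lipid droplet protein gene (2.45-fold, 1.95 to 3.1). Alternative activation genes had a median of 0.17, inflammatory genes one of -0.05 and MHC class I genes one of -0.38.

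Many genes stood higher or lower in double cells than in either single class. Against Arg1-only cells, 243 of 2751 genes were higher (8.83%) and 386 lower (14%). Against Nos2-only cells 263 of 2739 were higher (9.6%) and 368 lower (13.4%). Inflammatory genes were higher in 12 of 17 and lower in 0 in each of these comparisons, which share the double cells (medians 1.04 and 0.96). Hypoxia genes were higher in 14 of 28 and lower in 1 against Arg1-only, and higher in 15 of 27 and lower in 0 against Nos2-only cells (medians 0.57 and 0.73). Interferon-gamma genes were higher in 8 of 18 against Arg1-only cells (median 0.52), and higher in 1 and lower in 6 of 20 against Nos2-only cells. The latter median was -0.16 and ran from -0.27 to 0.35 under the alternatives, so it has no fixed direction.

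Single genes gave the same picture with their sizes. Ccl5 in double cells was 4.91-fold (4.61 to 5.25) higher than in Arg1-only and 4.49-fold (4.24 to 4.77) higher than in Nos2-only cells. Fpr2, a receptor for formyl peptides, stood at 146 CPM, against 27.5 in Arg1-only and 89.0 in Nos2-only cells. Thbs1, the matricellular protein thrombospondin 1, stood at 1176 CPM, against 472 and 257. Cxcl2, a neutrophil chemokine, stood at 8669 CPM, against 4049 and 1703. Lpl was 14.0-fold (9.83 to 21.4) lower than in Arg1-only and 13-fold (9.13 to 19.8) lower than in Nos2-only cells. For Ccl5, Ptges, Lpl and Gpnmb the level in double cells lay outside the range spanned by the single classes.

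Within the C1q cells, several of these genes followed the number of Arg1 or Nos2 UMIs per cell. In cells with 0, 1, 2 to 4 and 5 or more Arg1 UMIs (1726, 49, 33 and 63 cells), Slc7a2 stood at 36.6, 64.1, 112 and 261 CPM, Egln3 at 5.37, 6.87, 53.8 and 79.1 CPM and Mgl2 at 219, 121, 4.14 and 6.46 CPM. Cells with 1 Arg1 UMI thus lay nearer to those with none for Egln3 and Mgl2. In the same bins of Nos2 (1752, 38, 24 and 57 cells), Slc7a2 stood at 27.1, 31.4, 121 and 387 CPM and Cxcl9 at 321, 625, 1246 and 1996 CPM. H2-M2 ran in opposite directions, at 224, 135, 37.2 and 43.6 CPM over the Arg1 bins and at 175, 251, 495 and 715 CPM over the Nos2 bins. Double cells are in the bins of both genes, and Nos2 itself stood at 41.3, 96.2, 331 and 434 CPM over the Arg1 bins. The parts of Arg1 and Nos2 in these levels were thus not separated. Median depth was 6980, 7682, 5751 and 9227 UMIs over the Arg1 bins and 6831.5, 9155.5, 12076.5 and 12606 over the Nos2 bins. The part of depth in these levels was not tested.

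**Figure D4:**
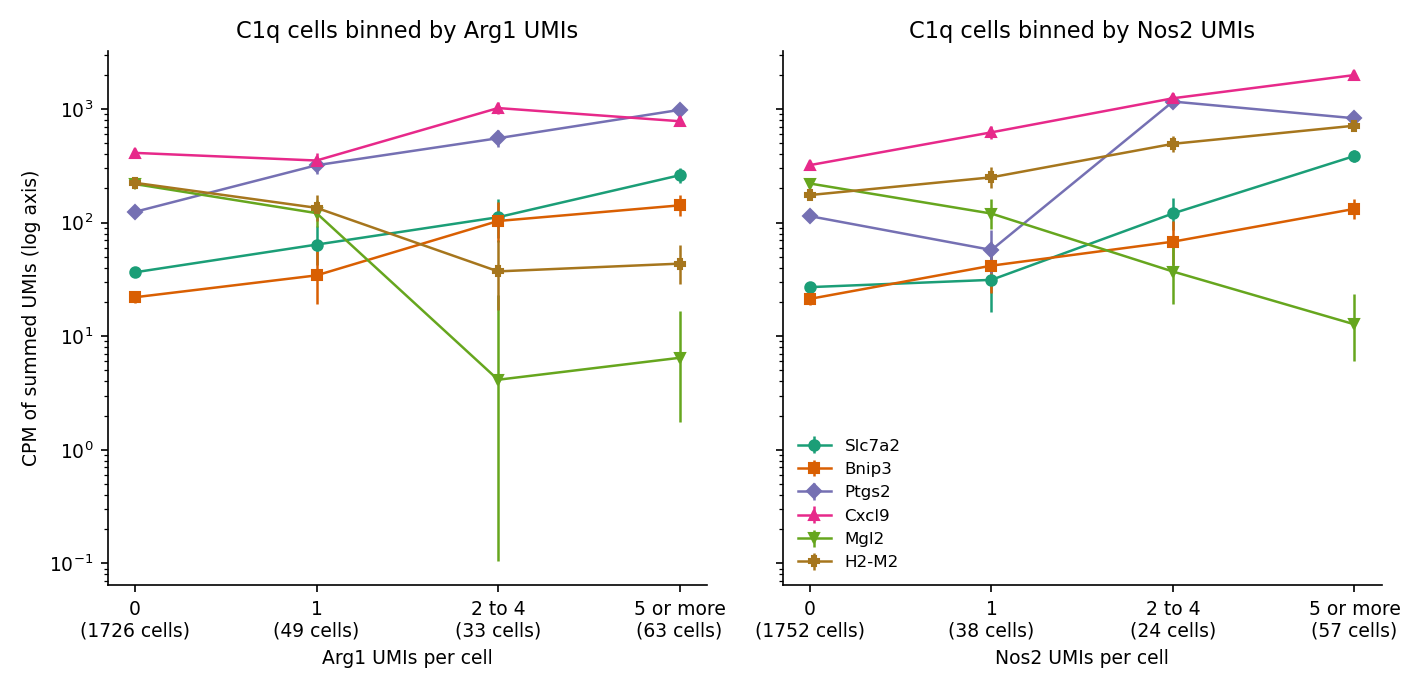
CPM of summed UMIs (log axis) of 6 genes in the 1871 C1q cells, binned by Arg1 UMIs per cell (left) or Nos2 UMIs per cell (right), with exact 95% Poisson intervals and the number of cells under each bin. Slc7a2 and Bnip3 are highest and Mgl2 is low at 5 or more UMIs of either gene, while H2-M2 is lower with more Arg1 and higher with more Nos2.

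With 2 or more UMIs required for either transcript, 58 Arg1-only, 45 Nos2-only and 32 double cells were left. The hypoxia medians against neither were then 1.28, 0.90 and 1.59, and the interferon-gamma medians 0.66, 1.27 and 0.90, in the order Arg1-only, Nos2-only and double. Transcripts of the X-inactivation gene Xist without Y-linked ones were found in 80.2%, 85.3% and 84.1% of the 3 classes and in 83.0% of cells with neither. The exact intervals of the classes overlapped (71.1 to 87.5, 75.3 to 92.4 and 69.9 to 93.4). Y-linked transcripts without Xist were found in 1.98%, 1.33%, 2.27% and 0.969% of the cells. Both kinds were found together in 4 Nos2-only cells (5.33%, 1.47 to 13.1), in 0 Arg1-only and 0 double cells (exact upper bounds of 3.59% and 8.04%) and in 0.848% (0.464 to 1.42) of cells with neither. Which animals these cells came from was not analysed here.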

How the data were processed

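The authors deposited raw UMI counts per gene and barcode, 1 matrix per source, from single-cell 3′ libraries (10x Chromium, chemistry version 3). They were made with Cell Ranger 3.1.0, per the file headers, on build mm10, per the submitters' processing notes. The annotation release is not given in the sources used here. Positions are from GENCODE release M21, which held 30934 of the 31053 gene identifiers. The labels' samples could not be separated within a matrix.

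Members and gene lists were chosen with earlier results of these data known. UMIs of the cells of a class were summed and scaled to 1000000 (CPM). Ratios had 0.5 UMI added to each sum and exact conditional binomial 95% intervals, single CPM values exact Poisson intervals, and shares exact Clopper-Pearson intervals. A gene was called when 1.5-fold or more apart and its higher class held at least 50 CPM and at least 30 UMIs, a higher bar in a smaller class. A list median used members with 10 or more UMIs over both classes, in lists of 5 or more such members. A fold against 0 UMIs counted 3 UMIs for that class. The genes of the membership rule were left out of counts of called genes.

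Named genes were the 12 highest and 12 lowest called ratios per comparison with UMIs in 10% or more of the cells of the higher class, the 4 members of each of 20 lists with the largest ratios, and fixed items. Membership, mitochondrial, ribosomal, immunoglobulin, T cell receptor, haemoglobin, sex-linked and unnamed genes were left out of that ranking. Exceptions are stated where they occur. Doublets were called with scrublet (scanpy 1.11.5, expected rate 0.8% per 1000 barcodes) and kept. Promoter sequences are from RefSeq. The ratios were tested on simulated class sums with known folds and Poisson counting error only, so spread between cells was not covered. Tools were Python 3.11.15, numpy 2.4.6, scipy 1.17.1, pandas 2.3.3, anndata 0.12.19 and matplotlib 3.10.9. The 13 alternatives changed cell filters, membership minimums, depth, scaling and gene minimums.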

Additional observations from a re-analysis of the deposited data

How the results depend on the processing

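No paired analysis was possible because each matrix pools its 4 samples, so no replicate could be left out either. The 44 pairs of list and comparison followed for the text gave 572 medians under the 13 alternatives. Of these, 518 stayed within 0.3 of the value given. Of all 572, 28 changed sign, 6 of them from a median of 0.2 or more in size, which are given here, and the others from medians nearer 0. Pairs outside the 44 were not counted, and some also changed sign. The median of growth factors acting on mesenchyme in double cells against neither was -0.75 and reached 0.10. That of resident macrophage genes in Arg1-only against Nos2-only cells was 0.66 and fell to -0.11. The medians of the hypoxia list against neither ranged from 0.82 to 1.33 in Arg1-only, 0.54 to 1.06 in Nos2-only and 1.48 to 1.85 in double cells. Those of the interferon-gamma list ranged from 0.48 to 0.87, 0.92 to 1.27 and 0.90 to 1.25, and that of inflammatory genes in double cells from 1.12 to 2.0. With cells thinned to 1500 UMIs the alternative activation medians became 0.66 (Nos2-only against neither), 0.55 (double against neither) and 0.11 (double against Arg1-only), and Ly6c2 in double cells against neither -0.93, and the cause was not tested. With cells of 3000 to 10000 UMIs the medians of chemokines in Arg1-only against Nos2-only cells (-0.25) and of scar-associated genes in double cells against neither (0.0317) changed sign, as did Slpi in Nos2-only cells (-0.44) and Spp1 in double cells (0.39) against neither and Col3a1, Sparc and Sox9 in Arg1-only against Nos2-only cells (0.14, 3.12 and 0.58). Without cells carrying markers of other types those 3 genes stood at 0.37, 0.81 and 0.0757. Without the top cell of each gene the scar-associated median in Arg1-only cells against neither was -0.0412. The 113 pairs of gene and comparison followed for the text gave 1356 recomputed ratios. Of these, 1024 stayed within their interval and 22 changed sign, 9 of them from a ratio of 1.5-fold or more, all named here.

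The counts of called genes depended on the minimum level. With 10 UMIs and no CPM minimum they were 2100 (460 as given) for Arg1-only against Nos2-only cells, 2830 (270), 3013 (459) and 3642 (797) for Arg1-only, Nos2-only and double cells against neither, and 2065 (629) and 2305 (631) for double against Arg1-only and Nos2-only cells. Thinned, they were 102 for Arg1-only against Nos2-only, 568 and 762 for Arg1-only and Nos2-only against neither, and 100 and 51 for double against Arg1-only and Nos2-only. Arg1-only cells against neither gave 531 with 2 UMIs required, 406 with cells of 3000 to 10000 UMIs and 425 with the mean of each cell's CPM, and double against Nos2-only cells gave 274 with cells of 3000 to 10000 UMIs. The classes held 58 Arg1-only and 45 Nos2-only cells with 2 UMIs required, 65, 29 and 18 (double) thinned, and 54, 16, 22 and 913 (neither) with cells of 3000 to 10000 UMIs. The share of Arg1 cells with Nos2 was 21.7% thinned. Without Arg1 it was 2.7% with 2 UMIs required, 1.7% with cells of 3000 to 10000 UMIs and 1.78% thinned. With 1 pooled library per source, variation between animals is unknown, and members with 1 UMI may include cells that do not express the gene.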
